A study of Mus musculus with 11 samples.

Results

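Spleens of Her2/neu transgenic mice that drank water with 0.2 mg/ml Curaxin-137 were compared with spleens of mice given 0.1 mg/ml, to ask what changes in spleen RNA when the dose is raised. The arrays were taken by their titles: 2 at 0.2 mg/ml, numbered 62 and 62_86, and 2 at 0.1 mg/ml, numbered 56 and 32, which are 4 of the 11 arrays of the series. The spleen of 1 mouse on plain water, array 8, is given for reference and entered no comparison, and the other 6 arrays are livers of the same 3 treatment groups. Treatment lasted 10 weeks, between 4 and 14 weeks of age, and every group, the water group included, carries the Her2/neu transgene. Which promoter drives the transgene, and on which strain background, the labels do not say. The design text speaks of 2 mice per treatment group. Nothing says whether arrays 62 and 62_86, which share a number, come from separate animals, so p-values below measure only the spread between these arrays, which may be technical.

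Curaxins are small molecules that bind DNA without cutting it, hold the histone chaperone FACT on chromatin, raise p53 activity and restrain NF-kB. The Her2/neu transgene encodes a receptor tyrosine kinase that drives mammary tumours. The mouse spleen filters blood through its red pulp, where macrophages take up old red cells and recycle their iron, and holds B and T lymphocytes in its white pulp. It also makes red cells, granulocytes and platelets throughout the life of a mouse. Type I and type II interferons act on all of these cells and switch on antiviral genes, chemokines, GTPases that attack intracellular microbes, and the genes that load peptides on MHC class I.

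The arrays carry 45281 probes, of which 34885 had 1 gene symbol, and 14179 features were tested: 11025 genes and 3154 probes without a gene name. Levels are log2 signals after background correction and quantile normalization, and each difference is the mean at 0.2 mg/ml minus the mean at 0.1 mg/ml on that scale. Mean raw signals were 117 and 99.2 at 0.2 mg/ml, 219 and 94.7 at 0.1 mg/ml and 128 in the control, and between 40% and 43.2% of probes were detected. All arrays carried spleen markers. In joint processing of both tissues, 11 B cell genes averaged 8.72 and 8.83 at 0.2 mg/ml and 9.10 and 8.25 at 0.1 mg/ml, while the treated livers lay between 4.26 and 4.32. Alb, the liver's main plasma protein, was not detected on any spleen array.

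The pair at 0.1 mg/ml was far less alike than the pair at 0.2 mg/ml. Over the 14179 features, arrays 62 and 62_86 correlated at 0.989 and arrays 56 and 32 at 0.948, below every correlation between an array at 0.2 mg/ml and one at 0.1 mg/ml (0.958 to 0.963). The SD of the within-pair log2 differences was 0.284 at 0.2 mg/ml and 0.616 at 0.1 mg/ml. Array 32 stood apart in genes of red cell precursors, dividing cells and granulocytes, and array 56 lay nearer to the other spleens in these. Array 56 stood apart in other genes. Klf6, a zinc finger factor of stress responses, measured 9.70 and 9.04 at 0.2 mg/ml and 9.39 in the control. At 0.1 mg/ml it measured 5.66 on array 56 and 8.77 on array 32. In the 37 kept histone genes both arrays at 0.1 mg/ml lay outside the other spleens, on opposite sides. The mean was 7.07 and 7.21 at 0.2 mg/ml, 6.63 on array 56, 8.00 on array 32 and 7.58 in the control. The median difference of these genes was 0.11 against array 56 alone and -0.76 against array 32 alone. The results on gene lists are therefore given against each array at 0.1 mg/ml as well as against both.

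A single feature passed an adjusted p of 0.05 in limma's moderated test, and it was higher at 0.2 mg/ml. It is probe ILMN_2835423, which has no gene name in the annotation used here. Its signal was 7.82 and 7.93 at 0.2 mg/ml, 4.21 and 4.53 at 0.1 mg/ml and 4.29 in the control. Both arrays at 0.2 mg/ml stood far above the other 3 spleens, which lay near the background: it was detected on 1 of the 2 arrays at 0.1 mg/ml and not in the control. The probe therefore passed the detection filter only through the arrays at 0.2 mg/ml, where it is high. The log2 difference was 3.50 (SE 0.23, adjusted p = 0.0259). No feature passed under 6 alternatives. The smallest adjusted p was 0.602 with 75th percentile scaling, 0.052 with no background correction and 0.222 with the authors' values. It was 0.249 with an offset of 50, 0.449 with no detection filter and 0.232 with a strict one. The strict filter asked for detection on every spleen array, so this probe was not tested there and the 0.232 belongs to another feature. Calls thus made up 0.00705% of the features in the higher direction and 0% in the lower, where the smallest adjusted p was 0.273.

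At an unadjusted p under 0.05, 699 features read higher (4.93%) and 579 read lower (4.08%), 1278 in all against 709 that this threshold would give by chance. With each array scaled to its 75th percentile in place of quantile normalization, 662 features had such a p, below the 709, so the excess depends on the scaling. Of those, 33.1% read higher, against 54.7% here. The 2 arrays of each dose did not overlap in 2888 features that read higher (20.4%) and 2836 that read lower (20.0%). An exact permutation test of 2 arrays against 2 cannot give a p below 0.333. When all 11 arrays were fitted together, so that the liver pairs also entered the estimate of the spread, 55 features passed, 43 higher and 12 lower, and 28 of them had a gene name. The calls numbered 8 without array 62 and 23 without array 62_86, but 1798 without array 56 and 1210 without array 32, where the spread rests on the alike pair at 0.2 mg/ml and the lone array is assumed to vary as they do. Because 1 feature alone passed, all genes below are given as values and not as changes.

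**Figure D1:**
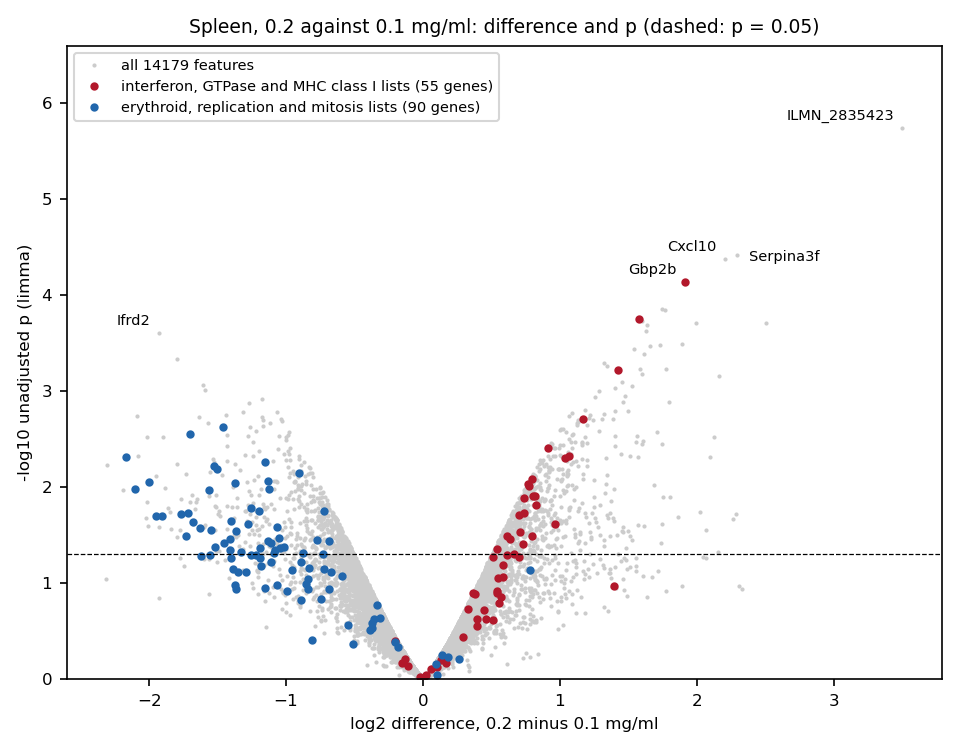
Log2 difference (0.2 minus 0.1 mg/ml, x axis) against -log10 of the unadjusted limma p (y axis) for the 14179 features, with a dashed line at the 0.05 threshold. Interferon, GTPase and MHC class I genes (red) lie mostly on the right, erythroid, replication and mitosis genes (blue) mostly on the left, and probe ILMN_2835423 stands alone at 3.50.

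Of the 40 features with the smallest p, 22 have no gene name, so the genes that follow are named ones among the leading features, and not all of those. The control's place varied among the unnamed probes. ILMN_2537869 measured 7.05 and 6.75 at 0.2 mg/ml, 5.24 and 5.29 at 0.1 mg/ml and 7.11 in the control. For ILMN_2615739 the values were 10.32 and 10.35, 8.44 and 8.74, and 7.32 in the control. Serpina3f, a protease inhibitor of the serpin family, measured 7.67 and 8.05 at 0.2 mg/ml, 5.46 and 5.67 at 0.1 mg/ml and 5.13 in the control. Its difference was 2.29 (SE 0.24, adjusted p = 0.199). Cxcl10, a chemokine that draws CXCR3-bearing T and NK cells, measured 7.17 and 7.28 at 0.2 mg/ml, 5.20 and 4.83 at 0.1 mg/ml and 4.69 in the control. For both genes the arrays at 0.2 mg/ml lay apart from the other 3 spleens, and those at 0.1 mg/ml lay near the control. The difference for Cxcl10 was 2.21 (SE 0.24, adjusted p = 0.199).

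Promoters of 3 of these genes are shown because each holds a sequence that interferon- or NF-kB-activated factors are known to read. The windows are RefSeq's, on GRCm38.p6, from 250 bases before the gene's start to 50 after it, read 5′ to 3′ along the gene. Capitals mark the core of the interferon-stimulated response element (GAAA, any 2 bases, then GAAA) and, in Cxcl10, the NF-kB element (GGGA, any 2 bases, then TTCC), each searched on both strands. Cxcl10 lies on the minus strand at chr5:92348840-92349139, with the response element at position -213 relative to the start and the NF-kB element at -159, which do not overlap. Gbp2b lies on the plus strand at chr3:142594597-142594896, with an element at -137, and Ifit3 on the plus strand at chr19:34583279-34583578, with elements at -156 and -122.
Cxcl10: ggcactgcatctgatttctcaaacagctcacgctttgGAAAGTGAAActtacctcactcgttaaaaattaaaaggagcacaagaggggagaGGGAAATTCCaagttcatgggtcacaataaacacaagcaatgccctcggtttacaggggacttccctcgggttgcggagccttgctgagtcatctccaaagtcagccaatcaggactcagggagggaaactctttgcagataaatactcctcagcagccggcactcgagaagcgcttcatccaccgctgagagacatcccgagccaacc
Gbp2b: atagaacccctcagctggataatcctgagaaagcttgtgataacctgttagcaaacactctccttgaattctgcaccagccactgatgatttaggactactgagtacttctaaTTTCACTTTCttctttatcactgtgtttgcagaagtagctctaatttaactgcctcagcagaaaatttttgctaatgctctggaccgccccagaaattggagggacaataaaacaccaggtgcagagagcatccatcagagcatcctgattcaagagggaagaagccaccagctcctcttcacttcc
Ifit3: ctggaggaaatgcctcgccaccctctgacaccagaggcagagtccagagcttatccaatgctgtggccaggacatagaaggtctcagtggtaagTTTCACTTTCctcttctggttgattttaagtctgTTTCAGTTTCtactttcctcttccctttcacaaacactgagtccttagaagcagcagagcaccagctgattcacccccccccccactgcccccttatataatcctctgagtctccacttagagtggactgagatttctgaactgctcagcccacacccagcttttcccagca
Of the 19 genes named for their p in either direction, 13 had a promoter in the table used. A response element, an NF-kB element or the gamma-activated site TTCNNNGAA was found in 4 of the 6 such genes that read higher, the 3 above and Serpina3f, and in 1 of the 7 that read lower, Ppp1r15a. Over all 32851 promoters of this length, 3.44% held the response element, 8.3% the gamma-activated site and 1.47% the NF-kB element. The share holding any of the 3 was not computed, so these counts have no matching background. The genes were picked by their p in these same data, and the difference between the directions was not tested. A match describes letters in the window and not binding by a factor.

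Interferon-inducible GTPases read higher nearly throughout. Gbp2b, a guanylate-binding protein that coats intracellular parasites, measured 10.10 and 10.09 at 0.2 mg/ml, 8.32 and 8.05 at 0.1 mg/ml and 7.96 in the control, a difference of 1.91 (SE 0.22, adjusted p = 0.261). Gvin1, a very large interferon-induced GTPase, measured 10.05 and 9.79 at 0.2 mg/ml, 8.26 and 8.04 at 0.1 mg/ml and 8.62 in the control. Gbp2, a close relative of Gbp2b, measured 10.18 and 10.40 at 0.2 mg/ml, 9.03 and 8.71 at 0.1 mg/ml and 8.52 in the control. In all 3 genes the doses did not overlap and the control lay with the lower dose. Probes of such close relatives can share signal. Of 12 kept genes on a list of guanylate-binding proteins, immunity-related GTPases and their regulators, 11 read higher, 8 of them at an unadjusted p under 0.05 (background 4.93%), and none passed after adjustment. The list's median difference was 0.74, against -0.01 over all features. The median was 0.87 against array 56 alone and 0.68 against array 32 alone.

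Irf1, the transcription factor that carries much of the response to interferon-gamma, measured 11.52 and 11.21 at 0.2 mg/ml, 10.76 and 10.31 at 0.1 mg/ml and 11.12 in the control. Its 5 probes all read higher, by 0.83 to 1.67. Ciita, the master activator of MHC class II genes, measured 9.31 and 9.15 at 0.2 mg/ml, 8.61 and 8.25 at 0.1 mg/ml and 9.40 in the control. For both genes the doses did not overlap, and on these probes the control lay with or close to the higher dose. For Irf1 the control's position depended on the probe. On a dimmer probe it measured 9.19, against 10.12 and 10.22 at 0.2 mg/ml and 9.71 and 8.91 at 0.1 mg/ml, nearer the lower dose. On another it measured 6.89, against 7.79 and 7.27 at 0.2 mg/ml and 6.05 and 6.07 at 0.1 mg/ml, nearer the higher dose.

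Antiviral interferon-stimulated genes followed with smaller differences. Ifit3, of a family of antiviral RNA-binding proteins, measured 8.02 and 8.09 at 0.2 mg/ml, 6.42 and 6.52 at 0.1 mg/ml and 5.91 in the control, a difference of 1.58 (SE 0.21, adjusted p = 0.264). Oasl2, of the oligoadenylate synthetase family, measured 7.61 and 7.49 at 0.2 mg/ml, 6.26 and 6.76 at 0.1 mg/ml and 5.92 in the control. Its dimmer second probe differed by 0.25. Irf9, the DNA-binding part of the type I interferon signalling complex, measured 8.57 and 8.56 at 0.2 mg/ml, 7.89 and 7.68 at 0.1 mg/ml and 7.62 in the control. In these genes the levels were ordered by dose, with the control lowest. Oas2, which senses double-stranded RNA, differed by 0.80 (SE 0.22) in the same order.

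Of 27 kept interferon-stimulated genes, 22 read higher and 5 lower, where 48.6% of all features read higher. At an unadjusted p under 0.05 the counts were 9 and 0 (background 4.93% and 4.08%), and after adjustment none passed. The list's mean level was 6.75 and 6.81 at 0.2 mg/ml, 6.33 and 6.34 at 0.1 mg/ml and 6.06 in the control. The arrays at 0.1 mg/ml, unlike in most other respects, thus gave nearly the same level here, and the median difference was 0.44 against array 56 alone and 0.46 against array 32 alone. Against both arrays it was 0.51, and between 0.32 and 0.45 under 7 alternatives of the processing, the lowest with an offset of 50.

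**Figure D2:**
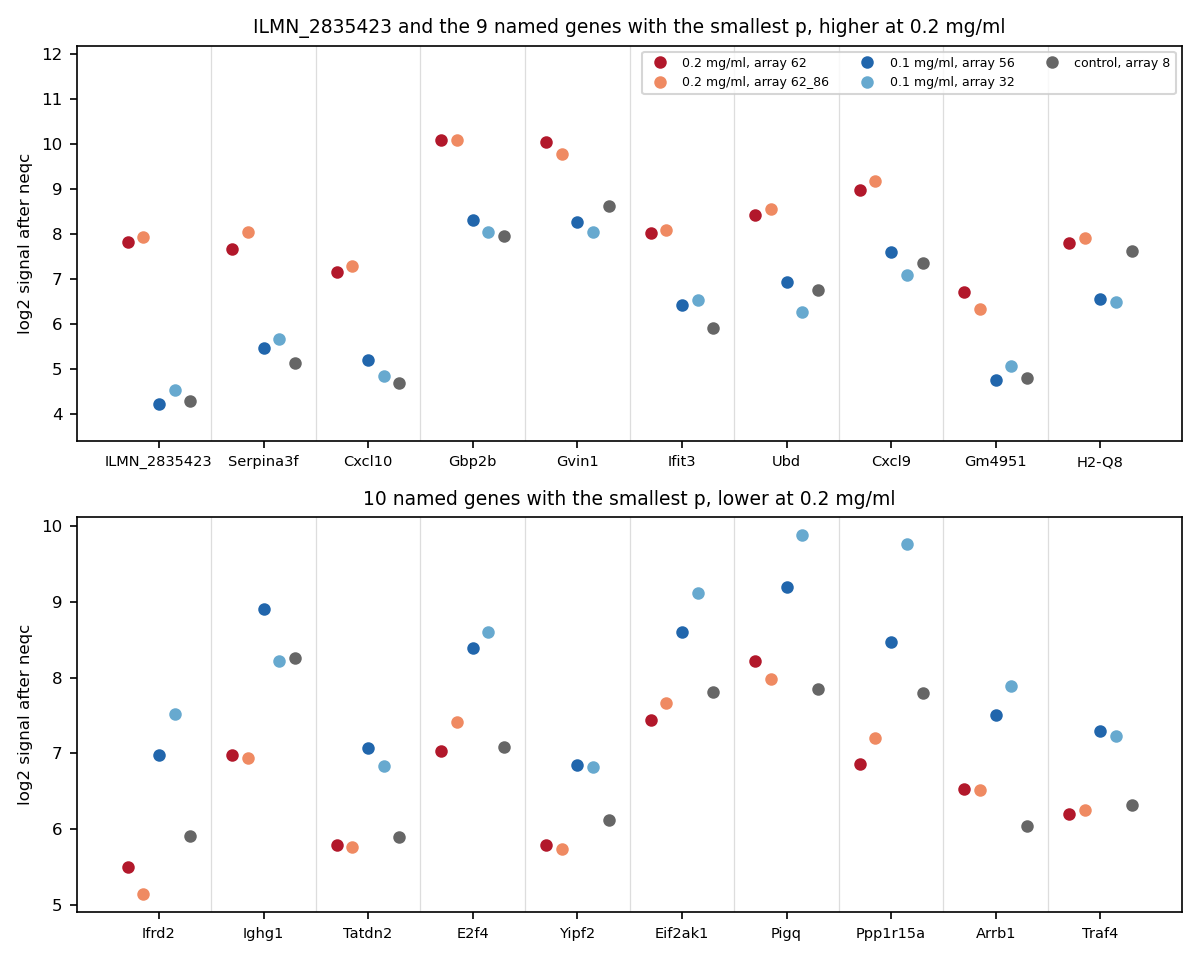
Log2 signal on each spleen array of probe ILMN_2835423 and the 9 named genes with the smallest p that read higher (top), and of the 10 named genes with the smallest p that read lower (bottom), at 0.2 mg/ml; other unnamed probes are not shown. Points run from the arrays at 0.2 mg/ml (red, orange) through those at 0.1 mg/ml (dark and light blue) to the control (grey). The doses are apart in every feature shown, and on the probe shown for H2-Q8 the control (7.63) lies with the higher dose.

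Ubd, Cxcl9 and Gm4951 were the next named genes on the higher side. Ubd, a ubiquitin-like protein that marks targets for the proteasome, measured 8.43 and 8.56 at 0.2 mg/ml, 6.94 and 6.26 at 0.1 mg/ml and 6.76 in the control, a difference of 1.89 (SE 0.28, adjusted p = 0.303). Cxcl9, a second CXCR3 ligand, measured 8.99 and 9.18 at 0.2 mg/ml, 7.61 and 7.10 at 0.1 mg/ml and 7.35 in the control, a difference of 1.73 (SE 0.26, adjusted p = 0.303). Gm4951 measured 6.72 and 6.33 at 0.2 mg/ml, 4.75 and 5.06 at 0.1 mg/ml and 4.80 in the control, a difference of 1.61 (SE 0.25). All 3 had both arrays at 0.2 mg/ml above the other 3 spleens.

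The fit of all 11 arrays brought several of these genes under the threshold. Its adjusted p was 0.0248 for Serpina3f, 0.0228 for Cxcl10, Ifit3 and Gm4951, 0.0233 for Gbp2b, 0.032 for Gvin1, 0.033 for Ubd and 0.0362 for Gbp2. Over all the alternatives run, the adjusted p of Cxcl10 lay between 1.46e-07 and 0.768 and that of Ifit3 between 2.37e-05 and 1, while the difference stayed between 1.46 and 2.31 for Cxcl10 and between 1.29 and 1.64 for Ifit3. Over the same alternatives the adjusted p of the other genes of this group ran up to 0.768 for Serpina3f and to 1 for Gm4951, Gbp2b, Gvin1, Ubd and Gbp2, and down to between 1.25e-07 for Ubd and 8.51e-05 for Gm4951.

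Chemokine genes were mixed. Ccl4, a chemokine made by activated macrophages and lymphocytes, measured 7.38 and 7.76 at 0.2 mg/ml, 6.55 and 6.41 at 0.1 mg/ml and 5.79 in the control. Ccl3, a related chemokine, measured 5.43 and 5.59 at 0.2 mg/ml, 4.65 and 4.64 at 0.1 mg/ml and 4.60 in the control. Cxcr4, which holds progenitors and lymphocytes at sources of CXCL12, went the other way, with 7.92 and 7.52 at 0.2 mg/ml, 9.14 and 8.74 at 0.1 mg/ml and 8.06 in the control. The doses did not overlap in these 3 genes. Of 24 kept chemokine and receptor genes, 18 read higher and 6 lower, with 5 and 1 at an unadjusted p under 0.05 (background 4.93% and 4.08%) and a median difference of 0.29.

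Every kept gene of MHC class I antigen presentation read higher, 16 of 16, where 48.6% of all features did. At an unadjusted p under 0.05 there were 7 (background 4.93%), none passed after adjustment, and in 11 the doses did not overlap (background 20.4%). The list's mean level was 9.23 and 9.24 at 0.2 mg/ml, 8.84 and 8.37 at 0.1 mg/ml and 8.85 in the control, so the control lay with array 56. The median difference was 0.58, and 0.36 against array 56 alone, where 14 of the 16 read higher, against 0.89 with array 32 alone, where all 16 did. With 75th percentile scaling it was 0.32.

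Nlrc5, the activator of MHC class I genes, measured 8.52 and 8.67 at 0.2 mg/ml, 7.79 and 7.27 at 0.1 mg/ml and 7.61 in the control. Psmb10, an interferon-induced catalytic subunit of the immunoproteasome, measured 10.55 and 10.42 at 0.2 mg/ml, 9.69 and 9.73 at 0.1 mg/ml and 10.06 in the control. H2-Q8, a nonclassical class I gene, measured 7.80 and 7.90 at 0.2 mg/ml, 6.56 and 6.49 at 0.1 mg/ml and 7.63 in the control, a difference of 1.33 (SE 0.21, adjusted p = 0.344). In these 3 genes the doses did not overlap, and on this probe of H2-Q8 the control stood with the higher dose. A dimmer probe of H2-Q8 measured 7.02 and 6.88 at 0.2 mg/ml, 6.27 and 5.84 at 0.1 mg/ml and 6.14 in the control. There the control lay with the lower dose.

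The classical class I gene H2-K1 and the loading factor Tapbp depend on the probe. The brightest probe of H2-K1 measured 10.88 and 10.78 at 0.2 mg/ml, 9.92 and 9.91 at 0.1 mg/ml and 10.81 in the control, while dimmer probes of it differed by 0.30 and -0.34. Tapbp, which bridges class I molecules to the peptide transporter, differed by 1.17 on its brighter probe and by -0.31 on the dimmer. Probes of class I genes can share signal with near relatives. MHC class II genes read higher in 11 of 11, with a median of 0.21, but the median was -0.12 against array 56 alone, where 2 of 11 read higher.

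**Figure D3:**
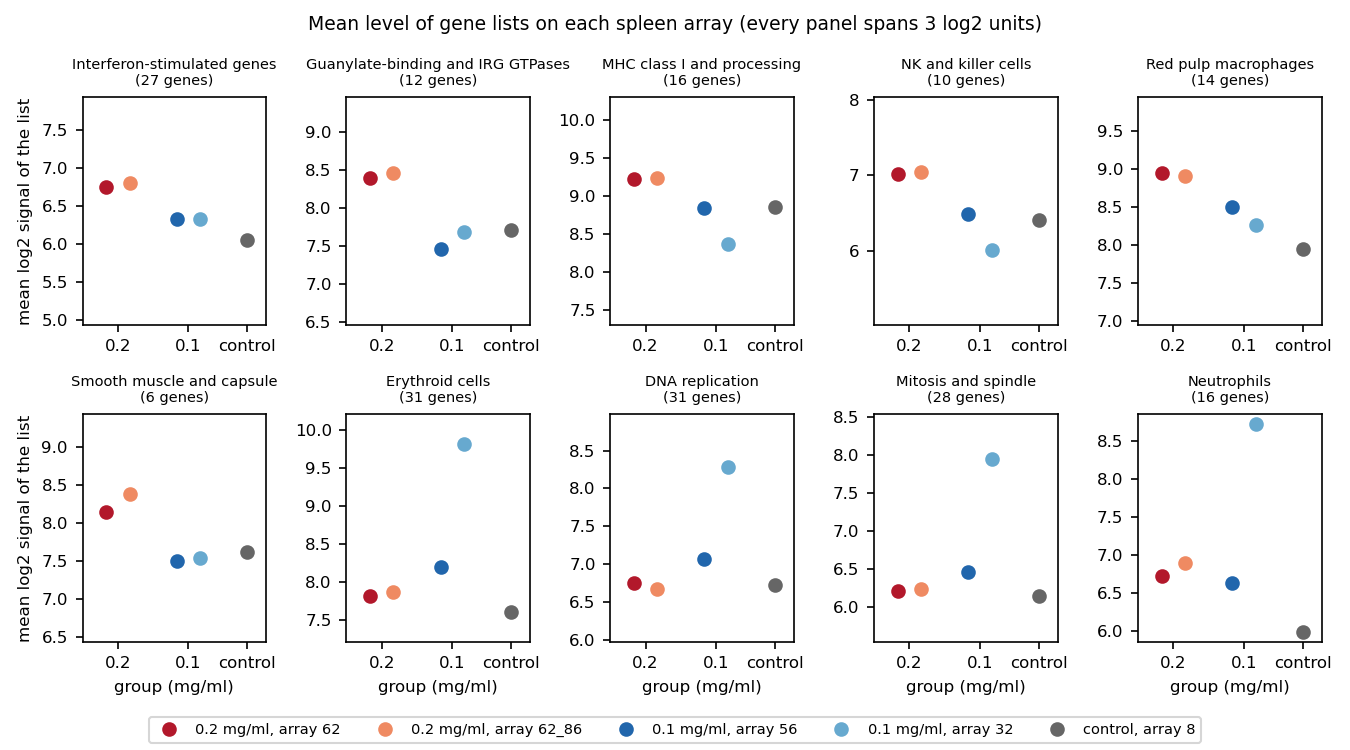
Mean log2 signal of 10 gene lists on each spleen array (y axis, every panel spans 3 log2 units), with 0.2 mg/ml left, 0.1 mg/ml in the middle and the control right. In the 6 lists from interferon-stimulated genes to smooth muscle both arrays at 0.2 mg/ml lie above the other 3. In the last 4 lists array 32 (light blue) stands far above every other spleen, at 9.82 for erythroid genes against 8.20 on array 56.

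Markers of natural killer cells, which kill infected and transformed cells and are read here as levels in whole spleen, read higher in 10 of 10 kept genes. In bulk tissue fewer cells of a type and less RNA per cell cannot be told apart. Klre1, an NK receptor, measured 6.81 and 7.19 at 0.2 mg/ml, 5.54 and 4.90 at 0.1 mg/ml and 4.72 in the control, a difference of 1.78 (SE 0.29, adjusted p = 0.344, and 0.0228 in the fit of all 11 arrays, with 1.8e-06 to 1 over all alternatives). Klrg1, a receptor of mature NK and effector T cells, measured 5.80 and 5.89 at 0.2 mg/ml, 4.96 and 4.56 at 0.1 mg/ml and 4.38 in the control. Klrd1, which pairs with NKG2 receptors, measured 8.58 and 8.86 at 0.2 mg/ml, 8.12 and 7.30 at 0.1 mg/ml and 8.26 in the control. The doses did not overlap in these genes, and of these 3 genes Klre1 and Klrg1 had the control as the lowest array. Klra4, of the Ly49 family whose members share sequence, differed by 1.06 (SE 0.25).

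Of the 10 NK and killer cell genes, 5 had an unadjusted p under 0.05 (background 4.93%) and none an adjusted one. The list's mean level was 7.02 and 7.05 at 0.2 mg/ml, 6.49 and 6.01 at 0.1 mg/ml and 6.42 in the control. Its median difference was 0.81, with 0.60 against array 56 alone and 1.03 against array 32 alone, but 0.39 with no detection filter. T cell genes read higher in 11 of 13, with a median of 0.29 that was 0.04 against array 56 alone. Cd28, the T cell costimulatory receptor, measured 6.17 and 6.06 at 0.2 mg/ml, 4.61 and 5.13 at 0.1 mg/ml and 5.78 in the control. Bcl11b, a factor that keeps T cell identity, differed by 0.74 (SE 0.28) on its brightest probe and by 0.20 to 0.62 on 3 others.

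B cell genes gave opposite signs against the separate arrays at 0.1 mg/ml. Their median difference was 0.18, made of -0.35 against array 56 and 0.48 against array 32. Of 11 kept genes 7 read higher and 4 lower, where 48.6% of all features read higher. Against array 56 alone 3 read higher and 8 lower, where all features gave 6218 and 7961. Against array 32 alone the counts were 10 and 1, where all features gave 7951 and 6228. Ms4a1, which encodes CD20, nevertheless measured 7.54 and 7.53 at 0.2 mg/ml, 6.81 and 6.85 at 0.1 mg/ml and 7.61 in the control. Fcer2a, a receptor of follicular B cells, measured 8.97 and 9.35 at 0.2 mg/ml, 8.73 and 8.13 at 0.1 mg/ml and 9.21 in the control. Both were lowest at 0.1 mg/ml, with the control at the level of the higher dose. These 2 genes are among the 3 of the list that read higher against array 56, so they do not stand for the rest. Ighg1, the constant region of IgG1 antibody, went the other way, with 6.98 and 6.94 at 0.2 mg/ml, 8.91 and 8.22 at 0.1 mg/ml and 8.27 in the control, a difference of -1.60 (SE 0.28, adjusted p = 0.418). Here the higher dose lay below the other 3 spleens.

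Dendritic cell genes behaved like the B cell list, with a median of 0.46 that was -0.06 against array 56 and 0.99 against array 32. Of 9 kept genes 8 read higher and 1 lower, where 48.6% of all features read higher. Against array 56 alone 3 read higher and 6 lower, and the 2 genes given here are among those 3. Siglech, a receptor of plasmacytoid dendritic cells, the main makers of type I interferon, measured 7.78 and 7.51 at 0.2 mg/ml, 6.88 and 6.37 at 0.1 mg/ml and 8.47 in the control. The doses did not overlap, and the control was the highest of the 5 spleens. A dimmer second probe of Siglech differed by 0.20. Bst2, an interferon-induced tether of viruses that also marks these cells, measured 5.62 and 6.07 at 0.2 mg/ml, 5.30 and 4.46 at 0.1 mg/ml and 5.99 in the control.

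Red pulp macrophage genes read higher in 11 of 14, with 9 at an unadjusted p under 0.05 (background 4.93%) and none after adjustment. Spic, the transcription factor that makes red pulp macrophages, measured 9.06 and 9.13 at 0.2 mg/ml, 8.19 and 7.62 at 0.1 mg/ml and 7.95 in the control. Mertk, a receptor for dying cells, measured 7.44 and 7.58 at 0.2 mg/ml, 6.57 and 6.57 at 0.1 mg/ml and 6.20 in the control. C1qb, a chain of complement C1q, measured 9.41 and 9.38 at 0.2 mg/ml, 8.64 and 8.54 at 0.1 mg/ml and 7.09 in the control. The doses did not overlap in any of these genes. Adgre1, which encodes the macrophage marker F4/80, measured 8.68 and 8.57 at 0.2 mg/ml, 7.87 and 7.75 at 0.1 mg/ml and 8.13 in the control, and its 3 probes differed by 0.53 to 0.81.

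Slc40a1, the iron exporter ferroportin, measured 12.16 and 11.92 at 0.2 mg/ml, 11.40 and 11.29 at 0.1 mg/ml and 11.17 in the control. Trf, the iron carrier transferrin, measured 8.66 and 8.27 at 0.2 mg/ml, 7.73 and 7.46 at 0.1 mg/ml and 7.04 in the control. Both were ordered by dose. The red pulp macrophage list averaged 8.95 and 8.91 at 0.2 mg/ml, 8.50 and 8.26 at 0.1 mg/ml and 7.94 in the control, and its median difference was 0.64, with 0.61 against array 56 alone and 0.78 against array 32 alone, but 0.37 with 75th percentile scaling. Of 5 kept genes of marginal zone and metallophilic macrophages 3 read higher and 2 lower, with a median of 0.04, and the difference between the lists was not tested. Adamdec1, a secreted metalloprotease, differed by 0.69 (SE 0.24) and Sfrp1, a Wnt antagonist, by 0.61 (SE 0.34), both with the doses apart. Marco, a scavenger receptor there, measured 6.94 and 7.15 at 0.2 mg/ml, 8.19 and 7.21 at 0.1 mg/ml and 7.60 in the control, and Cd209b, a lectin of the same zone, differed by -0.55 (SE 0.23).

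Smooth muscle genes, which mark the contractile capsule, trabeculae and vessels, read higher in 6 of 6, with 5 at an unadjusted p under 0.05 (background 4.93%) and the doses apart in all 6 (background 20.4%). Acta2, smooth muscle actin, measured 11.36 and 11.56 at 0.2 mg/ml, 10.47 and 10.67 at 0.1 mg/ml and 11.06 in the control. Actg2, a second smooth muscle actin, measured 7.61 and 7.80 at 0.2 mg/ml, 6.66 and 6.84 at 0.1 mg/ml and 6.45 in the control. Mylk, the kinase of the myosin light chain, measured 9.56 and 9.58 at 0.2 mg/ml, 8.83 and 8.83 at 0.1 mg/ml and 8.99 in the control. The median difference was 0.81, with 0.71 against array 56 alone and 0.76 against array 32 alone. Myh11, smooth muscle myosin, differed by 0.89 (SE 0.27). Related actins can share probe signal.

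Lists of stroma, mesothelium and fat were mixed. Of 16 kept fibroblast and stroma genes 9 read higher and 7 lower, with a median of 0.16. At an unadjusted p under 0.05 the counts were 3 and 1 (background 4.93% and 4.08%). Dcn, the matrix proteoglycan decorin, measured 8.67 and 8.29 at 0.2 mg/ml, 7.67 and 7.62 at 0.1 mg/ml and 8.74 in the control, while Pi16, a marker of adventitial fibroblasts, differed by -0.93 (SE 0.35). Upk3b, a mesothelial surface gene, measured 5.14 and 4.93 at 0.2 mg/ml and was not detected on either array at 0.1 mg/ml, at least 1.54-fold higher, where the bound takes the dimmest detected signal of each array. Adipoq, a hormone of fat cells, measured 5.56 and 5.69 at 0.2 mg/ml, 4.17 and 4.51 at 0.1 mg/ml and 4.32 in the control, and Car3, another adipocyte gene, was at least 1.39-fold higher. Upk3b, Car3 and Adipoq passed the detection filter only through the arrays at 0.2 mg/ml. Of the 2 kept mesothelial genes the other, Msln, differed by -0.06. Of 5 kept adipocyte genes 3 read higher and 2 lower. Among the lower ones Slc2a4, the insulin-regulated glucose transporter, was undetected at 0.2 mg/ml and detected on both arrays at 0.1 mg/ml. It passed the filter only through the latter. Fabp4, Plin1, Cidec and Retn were undetected on every spleen array. The part of such tissue in the other results was not tested. Klk1, a kallikrein of exocrine glands on the pancreatic list, measured 7.70 and 7.78 at 0.2 mg/ml, 6.82 and 5.28 at 0.1 mg/ml and 6.61 in the control, but 7 of 34 pancreatic genes on the array were kept and their median difference was -0.01.

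On the lower side, the genes with the smallest p spanned several processes. Ifrd2, a ribosome-bound repressor of translation known from rabbit reticulocytes, measured 5.49 and 5.14 at 0.2 mg/ml, 6.97 and 7.52 at 0.1 mg/ml and 5.90 in the control, a difference of -1.93 (SE 0.28, adjusted p = 0.273). Eif2ak1, the haem-regulated kinase that slows globin translation when haem is short, measured 7.43 and 7.67 at 0.2 mg/ml, 8.61 and 9.12 at 0.1 mg/ml and 7.81 in the control. Ppp1r15a, the phosphatase subunit that reverses such a stop in translation, measured 6.86 and 7.20 at 0.2 mg/ml, 8.47 and 9.76 at 0.1 mg/ml and 7.80 in the control. In all 3 the doses did not overlap, array 32 was the highest, and the control lay with or nearer to the higher dose. E2f4, a cell cycle factor needed for red cell formation, measured 7.03 and 7.42 at 0.2 mg/ml, 8.40 and 8.60 at 0.1 mg/ml and 7.08 in the control.

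The remaining lower genes were Pigq, Tatdn2, Yipf2, Arrb1 and Traf4. Pigq, of the enzyme that starts GPI anchor synthesis, measured 8.22 and 7.98 at 0.2 mg/ml, 9.20 and 9.88 at 0.1 mg/ml and 7.84 in the control. Tatdn2, a putative nuclease, measured 5.79 and 5.76 at 0.2 mg/ml, 7.07 and 6.84 at 0.1 mg/ml and 5.90 in the control. Arrb1, which switches off G protein-coupled receptors, measured 6.53 and 6.52 at 0.2 mg/ml, 7.50 and 7.90 at 0.1 mg/ml and 6.04 in the control. In each the control lay with the higher dose. Yipf2, a membrane protein of the Golgi, differed by -1.07 (SE 0.21) but by 0.13 on a dimmer probe, and Traf4, an adaptor of the TNF receptor family, by -1.04 (SE 0.21) with its 4 probes between -1.12 and 0.11.

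Genes of red cell precursors read lower in 27 of 31, where 51.4% of all features did. At an unadjusted p under 0.05 there were 17 lower (background 4.08%) and 0 higher, none passed after adjustment, and the doses did not overlap in 23, all lower (background 20.0%). Slc4a1, the anion exchanger of the red cell membrane, measured 11.27 and 11.37 at 0.2 mg/ml, 12.46 and 13.58 at 0.1 mg/ml and 12.11 in the control. Sptb, which encodes beta spectrin, measured 7.88 and 7.58 at 0.2 mg/ml, 9.02 and 10.77 at 0.1 mg/ml and 8.94 in the control, and a dimmer probe of it differed by 0.30. Xpo7, an exporter needed for nuclear condensation in red cells, measured 5.29 and 4.94 at 0.2 mg/ml, 6.20 and 6.95 at 0.1 mg/ml and 5.65 in the control. Array 32 was the highest spleen for each of them. Cpox, an enzyme of haem synthesis, was not detected at 0.2 mg/ml and was at least 2.03-fold lower there than at 0.1 mg/ml. It passed the detection filter only through the arrays at 0.1 mg/ml.

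The size of the erythroid difference rests on array 32. The list's mean level was 7.81 and 7.86 at 0.2 mg/ml, 8.20 on array 56 and 9.82 on array 32 at 0.1 mg/ml, and 7.60 in the control. Its median difference was -1.35, made of -0.49 against array 56 alone, where 26 of 31 genes read lower, and -2.27 against array 32 alone, where all 31 did. Nfe2, a factor of the megakaryocyte and erythroid lines, showed the same spread, with 6.69 and 7.13 at 0.2 mg/ml, 7.79 on array 56, 9.76 on array 32 and 7.03 in the control.

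Genes of dividing cells followed the erythroid list. All 31 kept DNA replication genes read lower, 16 of them at an unadjusted p under 0.05 (background 4.08%) and none after adjustment. Mcm6, a subunit of the replicative helicase, measured 7.75 and 7.33 at 0.2 mg/ml, 8.49 and 9.61 at 0.1 mg/ml and 7.65 in the control. Pcna, the sliding clamp of DNA polymerases, measured 5.37 and 4.84 at 0.2 mg/ml, 6.02 and 6.50 at 0.1 mg/ml and 5.79 in the control. Ung, which removes uracil from DNA, measured 6.78 and 6.63 at 0.2 mg/ml, 7.43 and 7.79 at 0.1 mg/ml and 6.88 in the control. The doses did not overlap in these genes, and array 32 was the highest. Lig1, the DNA ligase of replication, differed by -1.52 (SE 0.39) on its brightest probe and by -0.60 to 0.37 on 3 dimmer ones. The median of the list was -0.90, with -0.33 against array 56 alone, where 27 of 31 read lower, and -1.57 against array 32 alone.

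Mitosis and spindle genes read lower in 26 of 28, with 11 lower at an unadjusted p under 0.05 (background 4.08%). Aurka, a spindle pole kinase, measured 6.41 and 6.37 at 0.2 mg/ml, 7.23 and 8.68 at 0.1 mg/ml and 6.53 in the control. Birc5, which encodes survivin, measured 7.22 and 7.66 at 0.2 mg/ml, 8.07 and 9.91 at 0.1 mg/ml and 7.37 in the control. Prc1, which bundles microtubules at the midzone, measured 8.13 and 8.07 at 0.2 mg/ml, 8.74 and 10.71 at 0.1 mg/ml and 8.16 in the control. In each the control lay with the arrays at 0.2 mg/ml, array 56 stood moderately above it and array 32 far above. Foxm1, which drives genes of mitosis, differed by -1.05 (SE 0.40). The median was -1.11, with -0.36 against array 56 alone, where 23 of 28 read lower, and -1.95 against array 32 alone, where 26 did.

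Neutrophil granule genes stood high on array 32 and not on array 56. They read lower in 15 of 16, but none had an unadjusted p under 0.05 and the doses did not overlap in 3, a share near the background of 20.0%. Mpo, myeloperoxidase, measured 7.66 and 8.04 at 0.2 mg/ml, 8.20 on array 56 and 10.995 on array 32 at 0.1 mg/ml, and 7.59 in the control. Prtn3, a protease of granulocyte precursors, measured 5.53 and 5.98 at 0.2 mg/ml, 6.20 on array 56, 8.85 on array 32 and 5.32 in the control. Camp, the precursor of the antimicrobial peptide cathelicidin, measured 7.50 and 7.55 at 0.2 mg/ml, 7.79 on array 56, 8.87 on array 32 and 7.19 in the control. The list's median was -0.86, of which array 32 alone gave -1.78, while against array 56 alone it was 0.10, with 9 genes higher and 7 lower.

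**Figure D4:**
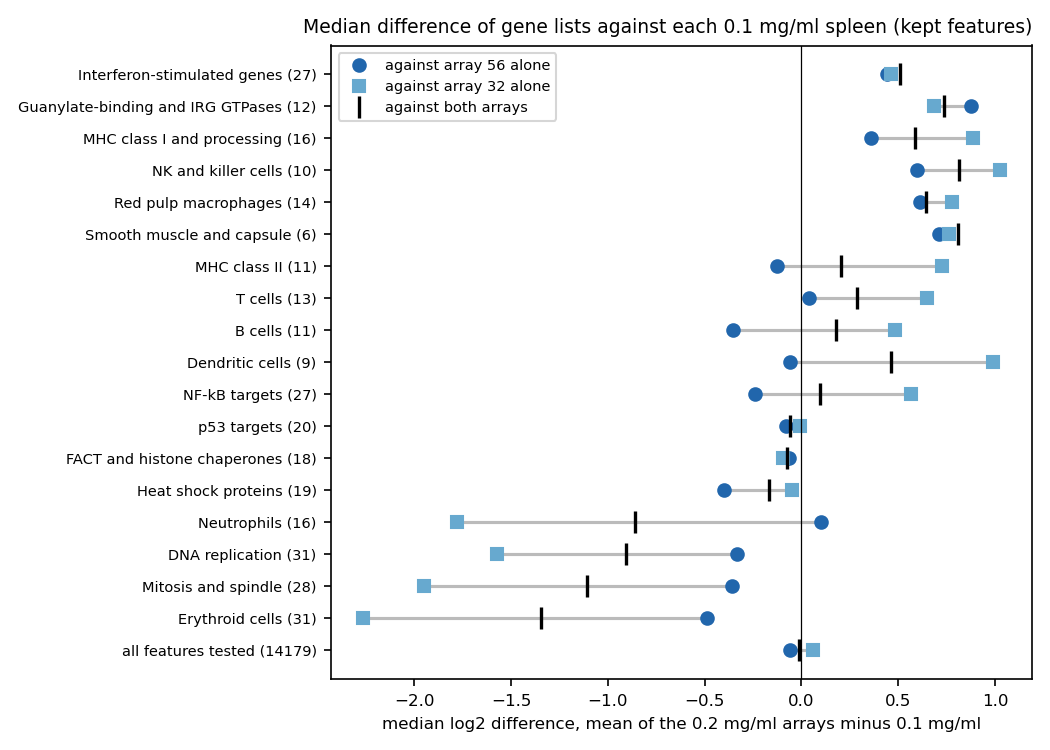
Median log2 difference (mean at 0.2 mg/ml minus 0.1 mg/ml, x axis) of gene lists against array 56 alone (circles), array 32 alone (squares) and both (bars), with the number of kept features in brackets. The top 6 lists lie above 0 against either array, replication, mitosis and erythroid genes lie below 0 against either with a wide gap, and neutrophil, B cell, dendritic cell, MHC class II and NF-kB lists lie on opposite sides of 0.

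Genes of the pathways known for curaxins showed no common direction. Supt16, a FACT subunit, measured 7.17 and 7.58 at 0.2 mg/ml, 6.55 and 7.20 at 0.1 mg/ml and 7.33 in the control on its brighter probe, a difference of 0.50 (SE 0.30), and -0.64 on the dimmer one. Of 18 FACT and other histone chaperone genes, 6 read higher and 12 lower, none at an unadjusted p under 0.05, with a median of -0.08. Anp32e, which removes the histone variant H2A.Z, differed by -0.51 (SE 0.22), and by 0.17 on a dimmer probe. Chaf1a, the large subunit of the replication-coupled chaperone CAF-1, measured 6.29 and 6.15 at 0.2 mg/ml, 6.49 on array 56, 8.15 on array 32 and 5.82 in the control.

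p53 target genes read higher in 8 and lower in 12 of 20, with 0 and 3 at an unadjusted p under 0.05 (background 4.93% and 4.08%) and a median of -0.06. Cdkn1a, the p53-induced inhibitor of the cell cycle, measured 5.50 and 5.46 at 0.2 mg/ml, 5.87 on array 56, 7.02 on array 32 and 4.95 in the control. Gadd45a, a stress sensor, measured 7.12 and 7.03 at 0.2 mg/ml, 7.56 on array 56, 8.61 on array 32 and 7.12 in the control. Phlda3, a p53-induced repressor of Akt, measured 5.68 and 5.73 at 0.2 mg/ml, 6.21 and 6.42 at 0.1 mg/ml and 4.86 in the control. All 3 were highest on array 32, the array on which genes of dividing cells were also highest, and the part of that in the difference was not tested.

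NF-kB target genes read higher in 17 and lower in 10 of 27, with 3 and 0 at an unadjusted p under 0.05 (background 4.93% and 4.08%), among them Cxcl10, Ccl4 and Ccl3. Their median of 0.10 was -0.24 against array 56 alone and 0.57 against array 32 alone. Nfkbia, the inhibitor that NF-kB induces, measured 8.88 and 9.06 at 0.2 mg/ml, 9.47 and 8.39 at 0.1 mg/ml and 8.72 in the control, a difference of 0.04 (SE 0.37) that turned to -0.24 under 75th percentile scaling. Heat shock genes read lower in 14 of 19, with 4 lower at an unadjusted p under 0.05 (background 4.08%). Dnajb1, a co-chaperone of Hsp70, measured 9.17 and 9.25 at 0.2 mg/ml, 10.23 and 10.24 at 0.1 mg/ml and 9.06 in the control, with the doses clearly apart and the control at the higher dose's level. Hspd1, a mitochondrial chaperonin, differed by -0.59 (SE 0.23), and by 0.07 on a dimmer probe. Calr, a chaperone of the endoplasmic reticulum that also serves MHC class I loading, measured 8.81 and 8.56 at 0.2 mg/ml, 7.20 and 7.86 at 0.1 mg/ml and 7.80 in the control. Dbp, an output gene of the circadian clock, measured 9.39 and 9.44 at 0.2 mg/ml, 8.76 and 8.23 at 0.1 mg/ml and 9.31 in the control.

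The control spleen lay nearer to the higher dose in most features. It correlated at 0.979 with array 62 and 0.972 with array 62_86, against 0.952 with array 56 and 0.949 with array 32. Over all 14179 features its level was nearer to the mean at 0.2 mg/ml than to that at 0.1 mg/ml in 58.3%. The share was 57.8% among the 699 features that read higher at an unadjusted p under 0.05 and 79.6% among the 579 that read lower. It was 33.3% for interferon-stimulated genes (9 of 27) and 7.14% for red pulp macrophage genes (1 of 14), against 90.3% for DNA replication (28 of 31), 83.9% for erythroid genes (26 of 31) and all 16 neutrophil genes. With 1 control array these shares have no error and describe that animal.

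The same dose contrast in the liver tested whether the difference in spleen was particular to it. Of 16179 features in both tissues, the spleen difference differed from the liver difference at an adjusted p under 0.05 in 1 (0.00618%), again probe ILMN_2835423. In this joint fit it was 3.29 in spleen and -0.05 in liver, a gap of 3.34 (SE 0.29, adjusted p = 0.0173). At an unadjusted p under 0.05 there were 1298 features (8.02%). The probe kept its call in this test under some alternatives only: the adjusted p reached 0.272, without array 62_86. Among the named genes of the plot by array, all those on the higher side had a smaller liver difference of the same sign. On the lower side, Ighg1 (-1.71 in spleen, 0.13 in liver) and Arrb1 (-1.20 and 0.16) had opposite signs in the tissues. Their gaps did not pass (adjusted p = 0.247 and 0.436). The other lower genes of the plot had a smaller liver difference of the same sign. Serpina3f read higher by 2.30 in spleen and 0.53 in liver, Cxcl10 by 2.11 and 0.57, and Gbp2b by 2.25 and 0.69, and the gaps did not pass (adjusted p = 0.395, 0.390 and 0.456). Cxcl9 read higher by 1.90 in spleen and 1.67 in liver, Ifit3 by 1.64 and 1.18, and Gvin1 by 2.06 and 1.38, and the gaps did not pass (adjusted p = 0.957, 0.722 and 0.704). For Gm4951 the joint fit gave 1.49 in spleen and 0.03 in liver (adjusted p of the gap 0.247), and for Klre1 1.70 and 0.00 (0.225).

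**Figure D5:**
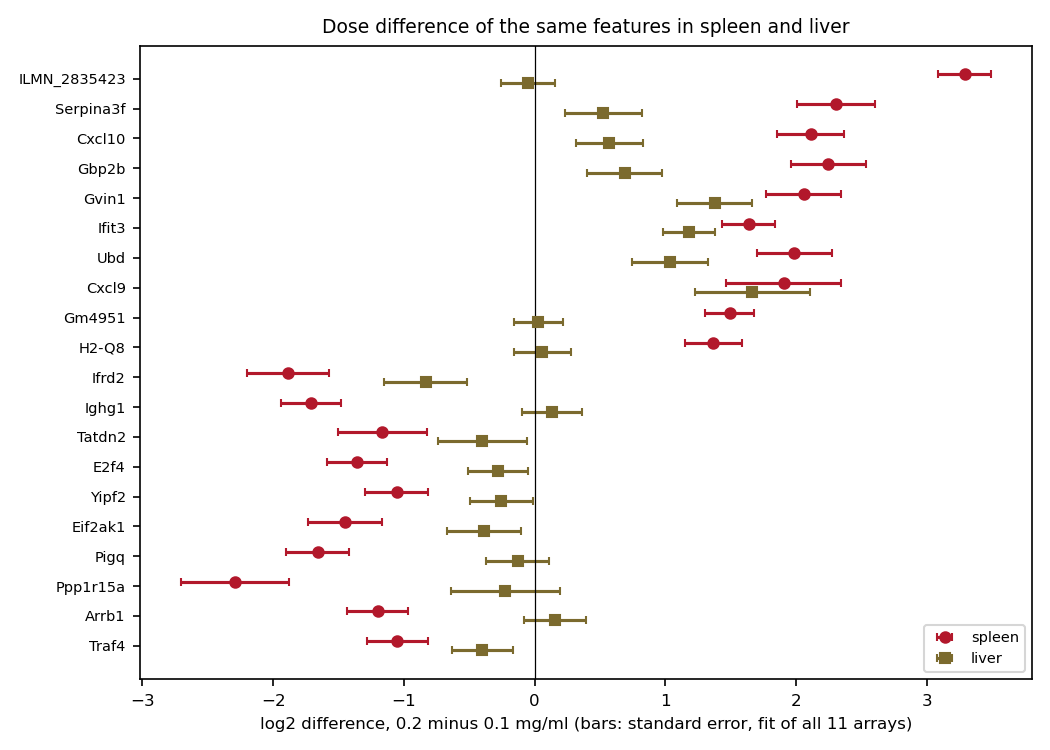
Log2 difference between 0.2 and 0.1 mg/ml (x axis, bars are standard errors of the fit of all 11 arrays) in spleen (circles) and liver (squares) for the 20 features of the plot by array. Gvin1, Ifit3, Ubd and Cxcl9 read at least 1.0 higher in both tissues, while ILMN_2835423, Gm4951 and H2-Q8 lie near 0 in liver.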

How the data were processed

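The authors deposited, per the file headers, 1 Illumina expression beadchip table with a summarised intensity and a detection p-value per probe and array, and a series matrix of log2 values. Per the submitters' processing notes GenomeStudio 1.6.0 was used. The deposited log2 values equalled quantile-normalised log2 signals with no background correction. Here limma 3.58.1 in R 4.3.3 was run on the intensities of the 5 spleen arrays (neqc, offset 16, background from detection p-values). Probes with a detection p under 0.05 on at least 2 spleen arrays were kept, and the probe with the highest mean stood for a gene. Of 45281 probes, 34885 had 1 gene symbol, 18 several and 10378 none; 34807 matched an Entrez entry and 0 symbols changed. lmFit and eBayes tested the 14179 features with 2 residual and 4.74 prior degrees of freedom, adjusted by Benjamini-Hochberg. Where a gene was undetected on both arrays of a dose, its fold is a bound. The number of arrays, not counts, limits the precision. The contrast was also set against liver in 1 fit of all 11 arrays. Of 905 genes on 44 lists, 829 were on the array and 683 were kept.

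The rule for named genes took features passing an adjusted p of 0.05, filled up to 10 per direction by smallest p, and up to 4 genes per list. It gave 186 genes tested in spleen, of which 87 are described, picked with their values in view. The comparison, the lists and the 10 lists led with were likewise chosen with earlier results of these data known. Alternatives covered scaling, background, offset, detection filter, the authors' values, the arrays fitted, moderation, probe choice and leaving out each array; comparing with each array at 0.1 mg/ml alone was added after these 2 arrays were seen to differ. How to label a shift of a list's median was set after other ways had been tried. The code was tested on simulated data under 2 assumptions about the variances. With variances drawn from the fitted prior, 4.88% of the calls were false. With the moderated variances of the features themselves, 10.1% were, above the set rate of 0.05. Both simulations gave a feature the same variance on every array and drew features independently. The real pairs differed in spread (SD 0.284 at 0.2 mg/ml and 0.616 at 0.1 mg/ml), so neither share is the error rate of this comparison.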

Additional observations from a re-analysis of the deposited data

Results flagged for a closer look

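The dose difference of probe ILMN_2835423 in spleen exceeded that in liver by 3.34 (SE 0.29, limma, adjusted p = 0.0173), with 3.29 in spleen and -0.05 in liver. It was the only feature of 16179 for which this test of the difference passed, and the adjusted p ran from 0.00166 to 0.272 over the alternatives run.

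In joint processing of both tissues, 4 lists had both spleens at 0.2 mg/ml below both at 0.1 mg/ml and both livers at 0.2 mg/ml above both at 0.1 mg/ml. The difference between tissues was not tested for lists. The mean difference was -1.01 in spleen and 0.27 in liver for DNA replication genes, and -1.01 in spleen and 0.20 in liver for mitosis and spindle genes. It was -0.14 in spleen and 0.26 in liver for p53 targets, and -0.20 in spleen and 0.09 in liver for megakaryocyte and platelet genes. The megakaryocyte and platelet separation was slight, with 7.2718 on array 62_86 and 7.277 on array 56. In the processing of the spleen arrays alone these were 7.4805 and 7.4757, so there the doses overlapped. Array 32 was the highest treated spleen in each of the 4 lists, at 8.14 for replication genes, against 6.52 and 6.45 at 0.2 mg/ml and 6.85 on array 56.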

How the results depend on the processing

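There were 0 calls under 75th percentile scaling, no background correction, the authors' values, an offset of 50, no detection filter and the strict filter. The strict filter did not keep probe ILMN_2835423, which was thus not tested there. With the 4 treated arrays, trend and robust moderation, the 0.2 mg/ml arrays averaged or every probe tested, 1 feature was called. All 11 arrays gave 55 calls, and leaving out 1 array gave 8 to 1798. The test against liver gave 5 calls with the authors' values, 0 with 75th percentile scaling, 2 with trend and robust moderation and 0 to 553 when 1 array was left out.

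Under 75th percentile scaling the median difference was 0.55 for NK, 0.37 for red pulp macrophage, 0.62 for smooth muscle, 0.33 for interferon-stimulated, 0.59 for GTPase and 0.32 for MHC class I genes. Interferon-stimulated genes gave 0.38 with no background correction, 0.33 with the authors' values, 0.32 with offset 50, 0.35 with no detection filter, 0.45 with the strict filter and 0.37 with all 11 arrays. Smooth muscle genes gave 0.69 with offset 50, 0.61 with no filter and 0.68 with every probe, and NK genes 0.39 with no filter. Leaving out 1 array gave 0.60 to 0.94 for NK, 0.60 to 0.77 for red pulp macrophage, 0.70 to 0.86 for smooth muscle, 0.37 to 0.53 for interferon-stimulated, 0.69 to 0.90 for GTPase, 0.36 to 0.94 for MHC class I, -2.27 to -0.50 for erythroid, -1.50 to -0.36 for replication, -1.85 to -0.37 for mitosis and -1.82 to 0.10 for neutrophil genes. The cause was not tested.

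Of 659 list medians under alternatives, 43 changed sign, in 24 of 44 lists. Of 1205 gene values described here 3 changed sign, all of Nfkbia: -0.24 under 75th percentile scaling, -0.05 without array 62_86 and -0.50 without array 32, with leave-one-out values up to 0.58. Among all 186 genes the naming rule gave, 27 of 2561 values did, in 22 genes, so the genes described, picked with values in view, are the steadier ones. No paired analysis was possible because the groups share no replicate numbers. Probes near background limit the dim genes, and 2 arrays a dose limit every p.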
